A study of Mus musculus with 3 samples.

Results

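JC-P cells, a population of the mouse mammary carcinoma line JC recovered from mammary fat pad tumours, were compared with JC-WT cells, the population of the same line labelled WT. Every feature with a mean of at least 1 TPM (a length-scaled transcript abundance) over the 3 libraries of the study entered the comparison, which held for 14527 of 55471 features in the deposited table. Per the labels' protocols, JC-P was taken from orthotopic tumours at day 14, and RNA of all populations was extracted from cultured cells. The remaining library, JC-M3, came from lung metastases after 3 cycles of tail vein injection, and its levels are given beside the others for orientation. All 3 populations carry the cell line label JC, the genotype label WT and the cell type label epithelial-like cell, and the labels name no step that removes host cells. The treatment label of JC-P reads metastasis and the series text calls these cells parental, so their fat pad origin rests on the protocol alone. Each population is 1 library of 1 cell line. No difference could therefore be set against a spread between replicates, no test was run, and each ratio describes a pair of libraries.

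Tumour cells growing in the fat pad meet stromal, vascular and immune cells, and signals from these neighbours act through receptors for interferons, cytokines, Notch ligands, growth factors and matrix proteins. Some expression patterns are kept when cells return to culture and others are lost. Whether any difference below arose in the tumour or in culture was not tested. The families below are ordered by role: antiviral and immune genes, matrix and adhesion genes, signalling pathways, metal and vitamin handling, and the machinery of growth and stress.

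Most transcripts were close to level between the populations, and the differences that reached 2-fold were mostly among low transcripts. Ratios are log2 values of (TPM + 0.5) in JC-P over JC-WT, which shrinks the differences of low genes. Their median over the 14527 features was 0.01, with quartiles of -0.25 and 0.30, and 81.1% of features lay within 1.5-fold. At least 2-fold higher in JC-P were 692 features (4.76%) and at least 2-fold lower 339 (2.33%). Among the 11405 protein-coding genes the corresponding numbers were 276 (2.42%) and 139 (1.22%). Of features with a mean of 1 to 3 TPM, 14.4% were at least 2-fold higher and 7.84% lower, whereas above 300 TPM these shares were 1.18% and 0.196%. Reads on genes, worked back from TPM, came to 18093426 (JC-WT), 22132593 (JC-P) and 23386413 (JC-M3). Each ratio received an exact 95% counting interval from them, given in parentheses, which refers to the plain TPM ratio without the pseudocount. It covers counting error only, not variation between cultures, and for a low gene the log2 ratio can lie outside it. At this depth the interval lay above 0 for 27.1% of features and below 0 for 28.3%, so differences far smaller than 2-fold exceeded counting error. Short and unspliced RNA classes spread widely. Among 180 measured microRNA genes, 36.1% were at least 2-fold higher and 21.1% lower, and such features are not described further.

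**Figure D1:**
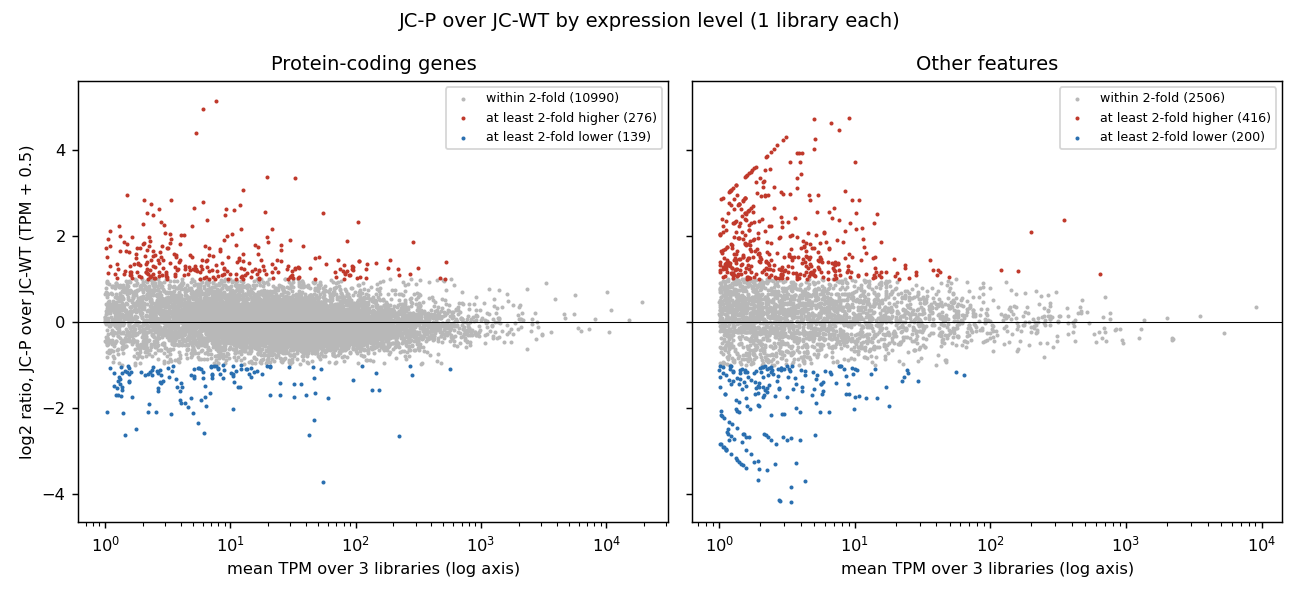
Log2 ratio of JC-P over JC-WT (TPM + 0.5) against the mean TPM of the 3 libraries on a log axis, with protein-coding genes on the left and all other features on the right. Each point is 1 feature of 1 library pair; 276 protein-coding genes are at least 2-fold higher (red) and 139 at least 2-fold lower (blue), and the spread narrows as the level increases.

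Few markers matching the label epithelial-like were measured, and markers of other cell types were mostly at or near 0 in both libraries. Krt8 and Krt18, the paired keratins of simple epithelium, stood at 1503, 1873 and 681 TPM and at 48.6, 48.5 and 18.4 TPM. This and all later triplets of levels follow the order JC-WT, JC-P, JC-M3. Epcam, the epithelial adhesion molecule, was listed at 0 in all 3 libraries, and Cdh1, the epithelial cadherin, at 0, 0.83 and 0.67 TPM. Only 7 of 24 luminal markers were measured. Of 22 macrophage and dendritic cell markers 4 were measured, all with ratios below 0, and their summed level was 71.8, 52.5 and 79.8 TPM. The pan-leukocyte gene Ptprc and the macrophage gene Adgre1 were listed at 0 in every library. None of 21 lymphocyte markers was measured, with a summed level of 1.78, 1.97 and 2.81 TPM, and of 16 adipocyte markers only Gpd1 was, a metabolic gene at 16.8, 10.4 and 8.47 TPM. Adipoq and Lep, defining adipocyte genes, were listed at 0. Of 17 endothelial markers 4 were measured, of which 2 were at least 2-fold higher (50%, against 4.76% of all features) and none lower. Their median log2 ratio was 0.59, and the summed level of the markers was 277, 304 and 279 TPM. Kdr, the main receptor for vascular endothelial growth factor, was listed at 0 and Pecam1 at 0.15, 0.24 and 0.23 TPM, whereas Cdh5, the endothelial cadherin, stood at 0.09, 17.7 and 0.10 TPM. Cdh5 is 1 of the 2 higher endothelial markers and passed the filter on the mean only through its level in JC-P. The share and median of the endothelial markers therefore partly reflect the filter. Fibroblast markers were present in all libraries, with 10 of 16 measured and a summed level of 879, 1132 and 1539 TPM. Of the 10 measured, 3 were at least 2-fold higher (30%, against 4.76% of all features) and 1 lower (10%, against 2.33%). The part of fibroblast markers in the results on matrix genes was not tested. In bulk RNA a smaller share of cells expressing a gene and less RNA of it per cell cannot be told apart, which applies to every level below.

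Several families of interferon-stimulated genes were higher in JC-P. Interferons bind surface receptors, activate transcription factors including STAT2 and IRF9, and induce proteins that block the replication of viruses and other intracellular microbes. Promoters of many such genes carry a response element whose core is GAAA, a pair of bases of any kind, and GAAA again. The 150 bases before the start site of 5 genes are printed here as examples of windows that hold this core. They were picked with their ratios known, which run from 0.74 to 1.35. They include the lowest ratio of the GTPases described next, but neither the highest of that family nor the lowest or highest of the antiviral effectors. The letters are from RefSeq on GRCm38.p6, 5′ to 3′ on the strand of the gene, with the match to the core on either strand in capitals. The windows are, in order, chr3:142620513-142620662 (+), chr3:142530186-142530335 (+), chr11:48871421-48871570 (-), chr5:120777660-120777809 (-) and chr12:26456453-26456602 (-).
Gbp2: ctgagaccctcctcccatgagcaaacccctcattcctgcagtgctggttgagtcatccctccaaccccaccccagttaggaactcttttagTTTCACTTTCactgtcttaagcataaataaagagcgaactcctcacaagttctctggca
Gbp7: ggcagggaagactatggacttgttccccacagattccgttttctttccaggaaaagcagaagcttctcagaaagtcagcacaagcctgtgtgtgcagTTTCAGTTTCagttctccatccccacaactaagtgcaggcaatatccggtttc
Irgm1: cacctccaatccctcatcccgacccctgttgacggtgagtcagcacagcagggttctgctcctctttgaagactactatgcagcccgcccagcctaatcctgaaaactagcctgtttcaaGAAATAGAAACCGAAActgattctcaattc
Oas3: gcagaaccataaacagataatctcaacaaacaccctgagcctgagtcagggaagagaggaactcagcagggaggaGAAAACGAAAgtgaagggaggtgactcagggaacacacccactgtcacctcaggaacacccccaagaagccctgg
Rsad2: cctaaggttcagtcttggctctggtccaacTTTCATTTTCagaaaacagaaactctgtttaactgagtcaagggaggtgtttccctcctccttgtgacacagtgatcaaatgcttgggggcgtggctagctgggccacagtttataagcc
Irgm1, the member of its family with the smallest ratio, holds a pair of overlapping matches, and the other windows hold 1 match each. Among 300-base windows from 250 bases before to 50 after the start, the core occurred on either strand in 3.99% of 27025 genes with a promoter in the table and in 3.75% of the 9405 measured ones. It occurred in 9 of 10 measured guanylate binding and immunity-related GTPase genes with a window and in 12 of 25 of the antiviral effectors. Of all features at least 2-fold higher with a window, 25 of 228 (11%) held it, against 3 of 118 (2.54%) of those lower. Within the antiviral effectors and GTPases it was found in 10 of 13 genes at least 2-fold higher and in 11 of 22 within 2-fold. A match describes the letters and does not show that a factor binds there.

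All 16 measured guanylate binding proteins and immunity-related GTPases, which attack the vacuoles that enclose microbes, had ratios above 0. Of them 10 were at least 2-fold higher, against 4.76% of all measured features, with a median log2 ratio of 1.18 against 0.01. Their summed level was 1515, 3053 and 2747 TPM. Gbp2 stood at 137 TPM (JC-WT), 294 TPM (JC-P) and 229 TPM (JC-M3), with a log2 ratio of 1.10 (1.03 to 1.18). Gbp7 stood at 59.6, 151 and 157 TPM in the same order, with a ratio of 1.34 (1.27 to 1.42), so JC-M3 was as high as JC-P. Gbp4, encoded on chromosome 5, was at 58.9, 134 and 63 TPM (1.18), with JC-M3 near JC-WT. Iigp1, an immunity-related GTPase, was at 85.9, 224 and 129 TPM, with a log2 ratio of 1.38 (1.32 to 1.45). The lowest ratio of the family belonged to Irgm1, a regulatory GTPase, with 142, 237 and 241 TPM and 0.74 (0.69 to 0.79). Tgtp1 (1.57), Tgtp2 (1.18), Gbp6 (1.23) and Gvin1 (1.28) were also at least 2-fold higher, but from 70.7% to 99.2% of their 50-base transcript windows occur in other genes, so how reads divide among these copies is uncertain.

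Antiviral effectors followed the same direction with a smaller median ratio. Of 36 measured, 35 had ratios above 0 and 10 were at least 2-fold higher (27.8%, against 4.76% of all features), with a median of 0.79. The highest ratio of both families was that of the interferon-induced gene Ifi44l, at 12.6, 75.5 and 77.4 TPM (2.54, 2.27 to 2.91). Oas3, which makes the oligoadenylate that activates RNase L, stood at 32.4 TPM (JC-WT), 83.2 TPM (JC-P) and 57.8 TPM (JC-M3), with a log2 ratio of 1.35 (1.27 to 1.45). Rsad2, the enzyme viperin that makes a chain-terminating nucleotide, was at 50.6, 119 and 112 TPM (1.22, 1.13 to 1.33). Ifit2, which binds foreign RNA, was at 55.1, 122 and 70.7 TPM (1.14, 1.05 to 1.24), and Mx1, a dynamin-like GTPase, at 51.1, 107 and 51.6 TPM (1.05, 0.95 to 1.16). For Ifit2 and Mx1 the level of JC-M3 was closer to JC-WT, and for Rsad2 it was closer to JC-P. The exception was Ifi27, a small mitochondrial protein gene also induced by interferon, at 567, 295 and 152 TPM and -0.94 (-1.01 to -0.87). The Isg15 system, which attaches a ubiquitin-like tag, and the Schlafen genes had all 10 measured members above 0 with none at 2-fold and a median of 0.71. Herc6, its ligase, stood just under the threshold at 19.1, 38.6 and 37.5 TPM (1.00, 0.91 to 1.13).

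Components upstream of these effectors differed less. Of 15 receptors and signal transducers none reached 2-fold, and their median was 0.19. The receptor chains Ifnar1 and Ifnar2 were at 40.5, 45.7 and 29.8 TPM and 20.4, 20.2 and 20.1 TPM. Stat2 was the highest at 111, 221 and 232 TPM, with 0.99 (0.93 to 1.05). Irf9, its partner in the same complex, was slightly lower at 153, 139 and 104 TPM (-0.15, -0.20 to -0.09). Among 5 measured interferon regulatory factors, Irf5 was at 6.29, 13.4 and 46 TPM (1.03, 0.75 to 1.44), with its highest level in JC-M3, and Irf7, the factor that amplifies interferon output, stood at the threshold with 329.5, 659 and 738 TPM (1.00, 0.96 to 1.04). Sensors of foreign nucleic acid and their adaptors were mostly above 0, in 13 of 18 cases with a median of 0.37. At least 2-fold higher were 2 (11.1%, against 4.76% of all features) and none lower. Their counting intervals lay above 0 for 12 and below 0 for 1. The endosomal RNA receptor Tlr3 was at 47.9, 97 and 94.7 TPM (1.01, 0.93 to 1.11), the cytosolic RNA sensor Ifih1 at 36.8, 73 and 79.5 TPM (0.98, 0.90 to 1.07) and the adaptor Myd88 at 126, 106 and 108 TPM (-0.25, -0.35 to -0.16). The Ifi200 family, DNA-binding proteins encoded in a cluster on chromosome 1, was added to the lists after its values were seen, and all 8 measured members of it were above 0, from 0.65 to 1.90. Several of its members share sequence, and Ifi203, at 73.8, 173 and 117 TPM (1.22, 1.16 to 1.29), belongs to both lists. In contrast, 26 measured TRIM genes, ubiquitin ligases of which several are interferon-induced, had 13 ratios above 0 and 13 below, and only Trim30d was at least 2-fold higher at 27.2, 65.3 and 37.6 TPM.

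**Figure D2:**
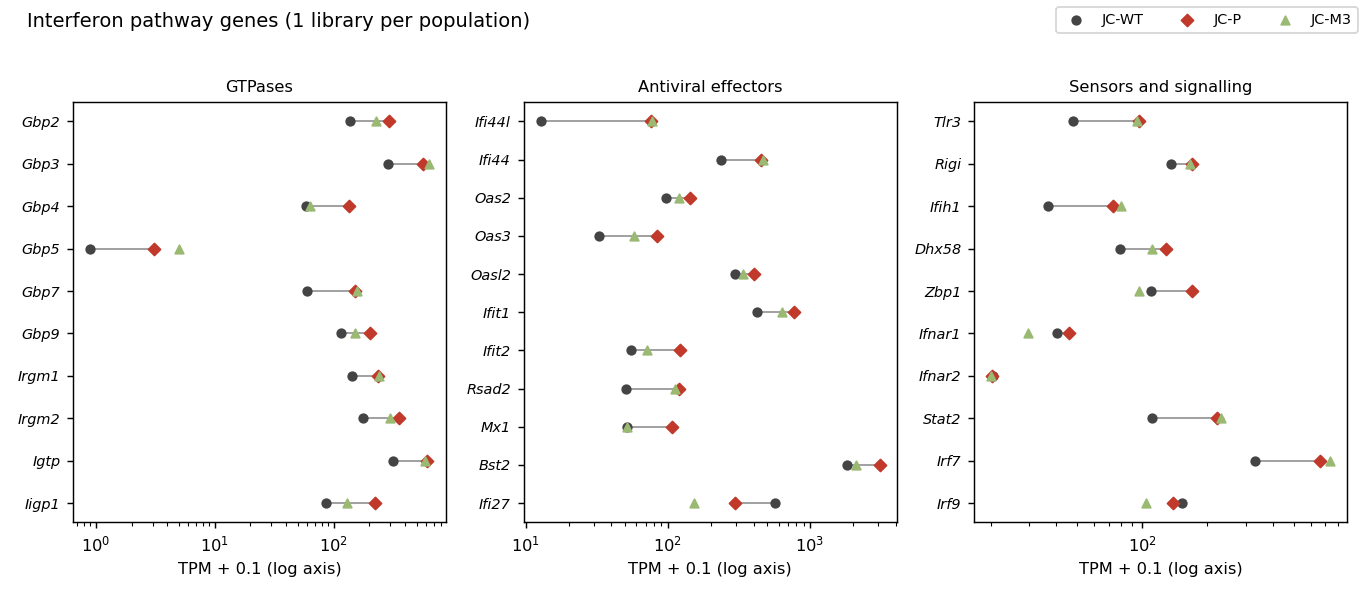
TPM + 0.1 on a log axis for GTPases, antiviral effectors, and sensors and signalling genes of the interferon pathway in JC-WT (circle), JC-P (diamond) and JC-M3 (triangle), 1 library each, with a line from JC-WT to JC-P. The genes shown were picked after their values were seen; among the GTPases every JC-P level lies to the right of JC-WT, while Ifi27 lies to the left and Ifnar2 is level.

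Genes that present antigen shared the direction of the interferon genes in smaller steps. Of 22 measured genes of class I presentation, peptide loading and the immunoproteasome, 19 were above 0, with a median of 0.52. At least 2-fold higher were 2 (9.09%, against 4.76% of all features). Tap1, a subunit of the peptide transporter, was at 29.6, 56 and 53 TPM (0.91, 0.81 to 1.04). The nonclassical class I gene H2-T24 stood at 16.3, 42.1 and 6.21 TPM, a ratio of 1.34 (1.13 to 1.61) and a level in JC-M3 below both others. No measured class II gene reached 2-fold, with only 3 of 7 measured. Of 12 measured ligands for immune checkpoints and natural killer receptors none reached 2-fold. The checkpoint ligand Cd274 was at 6.58, 10.8 and 12.4 TPM (0.67, 0.40 to 1.03) and Vsir at 13.6, 23.7 and 9.16 TPM (0.78, 0.62 to 0.99).

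Secreted immune signals differed gene by gene rather than as a group. Of 16 measured chemokines 6 were at least 2-fold higher (37.5%, against 4.76% of all features) and 1 lower (6.25%, against 2.33%). Cxcl10 and Cxcl11, interferon-induced ligands that attract T cells, were at 32.8, 79.7 and 171 TPM (1.27, 1.12 to 1.45) and 0.79, 4.09 and 8.22 TPM (1.84, 1.61 to 3.24), with the highest levels of both in JC-M3. Cxcl12, a constitutive stromal chemokine, stood at 43.1, 109 and 88.1 TPM (1.32, 1.26 to 1.41), while its receptor Cxcr4 was listed at 0 in all libraries. The neutrophil attractant Cxcl5 was lower at 92.3, 48.4 and 68.3 TPM (-0.92, -1.08 to -0.78), as was the membrane-bound Cx3cl1 at 81.3, 46.5 and 41.6 TPM (-0.80, -0.91 to -0.70). Ccl4 and Ccl17 passed 2-fold in opposite directions on 1 to 13 reads per library. Among 28 interleukins, colony-stimulating factors and receptors 1 was at least 2-fold higher (3.57%, against 4.76% of all features). Lower was also 1 (3.57%, against 2.33%), and the median was 0.12. Il18, an inflammasome cytokine, was at 15, 41.5 and 14.1 TPM (1.44, 1.11 to 1.84), and Csf3, the granulocyte growth factor, at 44.3, 13.3 and 4.85 TPM (-1.69, -2.04 to -1.43), with the lowest level in JC-M3. In the TNF superfamily and its receptors 11 of 19 measured genes were below 0, with a median of -0.05. At least 2-fold higher were 3 (15.8%, against 4.76% of all features) and none lower. With a pseudocount of 2 none was higher, and among the 14 averaging 10 TPM or more 1 was. Tnfsf10, a death ligand, stood at 8.99, 19.1 and 15.6 TPM (1.05, 0.88 to 1.30). Tnfrsf11b, the secreted decoy receptor osteoprotegerin, went from 0 reads in JC-WT to 29 in JC-P, at least 7.9-fold higher against a floor of 3 reads in JC-WT. None of 23 NF-kB subunits, kinases and inhibitors reached 2-fold, and their ratios ran from -0.42 for Nfkb2 to 0.36 for Birc3.

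Within several matrix families members differed in opposite directions. Extracellular matrix is built from fibrillar collagens, sheet-forming collagens and laminins of the basement membrane, proteoglycans and elastic fibres, and is cut by secreted proteases. All 6 measured fibrillar collagens had ratios above 0, with 2 at least 2-fold higher (33.3%, against 4.76% of all features) and a median of 0.91. This median rests on few genes, and was 0.38 over 11 genes with no filter on the mean and 1.57 over 4 genes averaging 10 TPM or more. Col5a3, a minor chain that regulates fibril diameter, was at 2.22, 11.6 and 22.6 TPM (2.15, 2.04 to 2.74). In the basement membrane, Col4a1 and Col4a2, which form the ubiquitous collagen IV trimer, were lower at 484, 301 and 332 TPM (-0.69, -0.72 to -0.66) and 382, 270.3 and 267 TPM (-0.50, -0.54 to -0.46), while the X-linked chain Col4a5 was higher at 17.2, 41.1 and 25.9 TPM (1.23, 1.12 to 1.39). None of 26 collagen folding and crosslinking genes reached 2-fold, from -0.62 for Loxl1 to 0.83 for Lox, both lysyl oxidases. Among proteoglycans, Ogn, osteoglycin, stood at 83.7, 229.7 and 254 TPM (1.45, 1.36 to 1.55), and Srgn, an intracellular granule proteoglycan, at 2.71, 0.62 and 0.73 TPM on 32 and 9 reads in JC-WT and JC-P. Of 26 measured elastic fibre and matricellular genes 2 were at least 2-fold higher (7.69%, against 4.76% of all features) and 3 lower (11.5%, against 2.33%). Among the 17 averaging 10 TPM or more, none was higher and 3 were lower. The higher members were Fbn1, the fibrillin of microfibrils, at 1.61, 4.09 and 3.52 TPM (1.12, 1.02 to 1.67) and Fbln7 at 1.21, 4.57 and 4.74 TPM (1.57, 1.22 to 2.67). Fbln2, another fibulin, was lower at -1.50. The hyaluronan synthase Has2 stood at 29.1, 12.4 and 12.6 TPM (-1.20, -1.42 to -1.04) and the hyaluronan receptor Cd44 at 378, 289 and 248 TPM (-0.39, -0.42 to -0.35). Of 7 measured laminin and netrin genes only Ntn1, the guidance protein netrin, reached 2-fold with 66.7, 138 and 119 TPM (1.04, 0.98 to 1.12).

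Protease families differed in how far their members shared a direction. ADAM and ADAMTS proteases, which shed surface proteins or trim matrix, were above 0 in 18 of 19 cases with a median of 0.45. Adamts2, which removes the aminopropeptide of fibrillar procollagens, had the largest ratio at 0.22, 2.38 and 1.36 TPM (2.00, 2.56 to 4.47), on 11 against 146 reads, and Adam19 was at 9.98, 18.9 and 30.7 TPM (0.89, 0.74 to 1.10). Of 12 measured matrix metalloproteinases and TIMPs 5 were above 0 and 7 below. At least 2-fold higher was 1 (8.33%, against 4.76% of all features) and lower 1 (8.33%, against 2.33%). The gelatinases of the matrix metalloproteinase family went in opposite directions. Mmp2 stood at 45.6 TPM (JC-WT), 123 TPM (JC-P) and 47.9 TPM (JC-M3), a ratio of 1.43 (1.32 to 1.55), so JC-P was alone in its high level, and Mmp9 stood at 20.2, 7.35 and 4.24 TPM, a ratio of -1.40 (-1.72 to -1.19). The Mmp2 activator Mmp14 was level at 132, 135 and 130.1 TPM, as was their inhibitor Timp3 at 136, 146 and 169.7 TPM. The list of plasminogen system and serpin genes was nearly even, with 10 of 19 above 0, 9 below and a median of 0.13. In the plasminogen system the protease Plau and its receptor Plaur were both below 0, at 326, 183 and 114 TPM (-0.84, -0.91 to -0.77) and 79.9, 41.9 and 61 TPM (-0.92, -1.07 to -0.80). Serpinb6b, an intracellular serine protease inhibitor, was at 6.18, 29.5 and 28.2 TPM (2.17, 1.90 to 2.63), and the other 18 measured members of that list lay within 2-fold.

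Surface adhesion genes held some of the largest ratios, in both directions. Of 21 measured adhesion molecules of the immunoglobulin superfamily and related antigens, 3 were at least 2-fold higher (14.3%, against 4.76% of all features). Lower were 4 (19%, against 2.33%). Among the 14 averaging 10 TPM or more, none was higher and 2 were lower. Cd81, a tetraspanin present on most cells, stood at 0.26 TPM (JC-WT), 15.5 TPM (JC-P) and 0.20 TPM (JC-M3). That is 4 reads in JC-WT against 293 in JC-P, with a log2 ratio of 4.40 (4.53 to 7.79), and it resembled Cdh5 in being high in JC-P alone. Cd81 and Cdh5 passed the filter on the mean only through JC-P, so the filter partly sets their place among the higher members. L1cam, a neural adhesion molecule, was at 0.48, 1.91 and 2.38 TPM (1.29, 1.26 to 2.78). Lower were Cd24a, a mucin-like antigen, at 13.7, 1.89 and 2.99 TPM (-2.57, -3.45 to -2.32), Mcam at 9.68, 2 and 19.8 TPM (-2.03, -2.79 to -1.79), Cd34, a sialomucin, at 90.5, 26.5 and 61.7 TPM (-1.76, -1.87 to -1.68) and Alcam at 2.09, 0.51 and 6.14 TPM (-1.36, -2.75 to -1.36). Mcam and Alcam were highest in JC-M3, whereas Cd24a was low in both tumour-derived populations. Of 18 integrins none was at least 2-fold higher and 4 were lower (22.2%, against 2.33% of all features), with a median of 0.08. Among the 10 averaging 10 TPM or more, 1 was lower. Itgb4, the hemidesmosome subunit, stood at 54.5, 26 and 7.36 TPM (-1.05, -1.17 to -0.96), a decreasing order from JC-WT to JC-M3. Itga8, a fibronectin-binding chain, was at 4.80, 0.91 and 1.03 TPM (-1.91, -2.91 to -1.92), and Itgax (-1.06) and Itga1 (-1.04) were the others. The shared beta chain Itgb1 was at 564, 747 and 831 TPM (0.41, 0.37 to 0.44).

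Junction and cytoskeletal genes were more often below 0 than above. Of 18 measured tight junction, desmosome and gap junction genes 15 were below 0, with a median of -0.27. Ocln, a tight junction protein, was at 4.06, 0.87 and 0.03 TPM (-1.74, -2.94 to -1.57), and Pkp1, a desmosomal plaque protein, at 21.1, 8.57 and 1.68 TPM (-1.25, -1.51 to -1.09), both lowest in JC-M3. Cldn1, another tight junction protein, went the other way at 19.5, 35.2 and 10.7 TPM (0.84, 0.70 to 1.01). Krt80, a keratin of differentiated epithelium, was at 10.9, 3.50 and 21.8 TPM (-1.51, -1.92 to -1.36), and Nes, the intermediate filament nestin, at 143, 265 and 380.3 TPM (0.88, 0.84 to 0.94). The 22 measured cadherins and protocadherins were evenly split, with 11 above and 11 below 0 and a median of 0.03. Of them 3 were at least 2-fold higher (13.6%, against 4.76% of all features), among them Cdh5, and 2 lower (9.09%, against 2.33%). Among the 12 averaging 10 TPM or more, none was higher and 1 was lower. The 2 lower members were Pcdh7, at 70.6, 33.8 and 32.9 TPM (-1.05, -1.14 to -0.99), and Fat4, at 1.93, 0.35 and 9.99 TPM (-1.52, -3.02 to -1.98). None of 10 transcription factors of the epithelial to mesenchymal transition reached 2-fold, with ratios from -0.27 for Twist2 to 0.61 for Elf3.

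**Figure D3:**
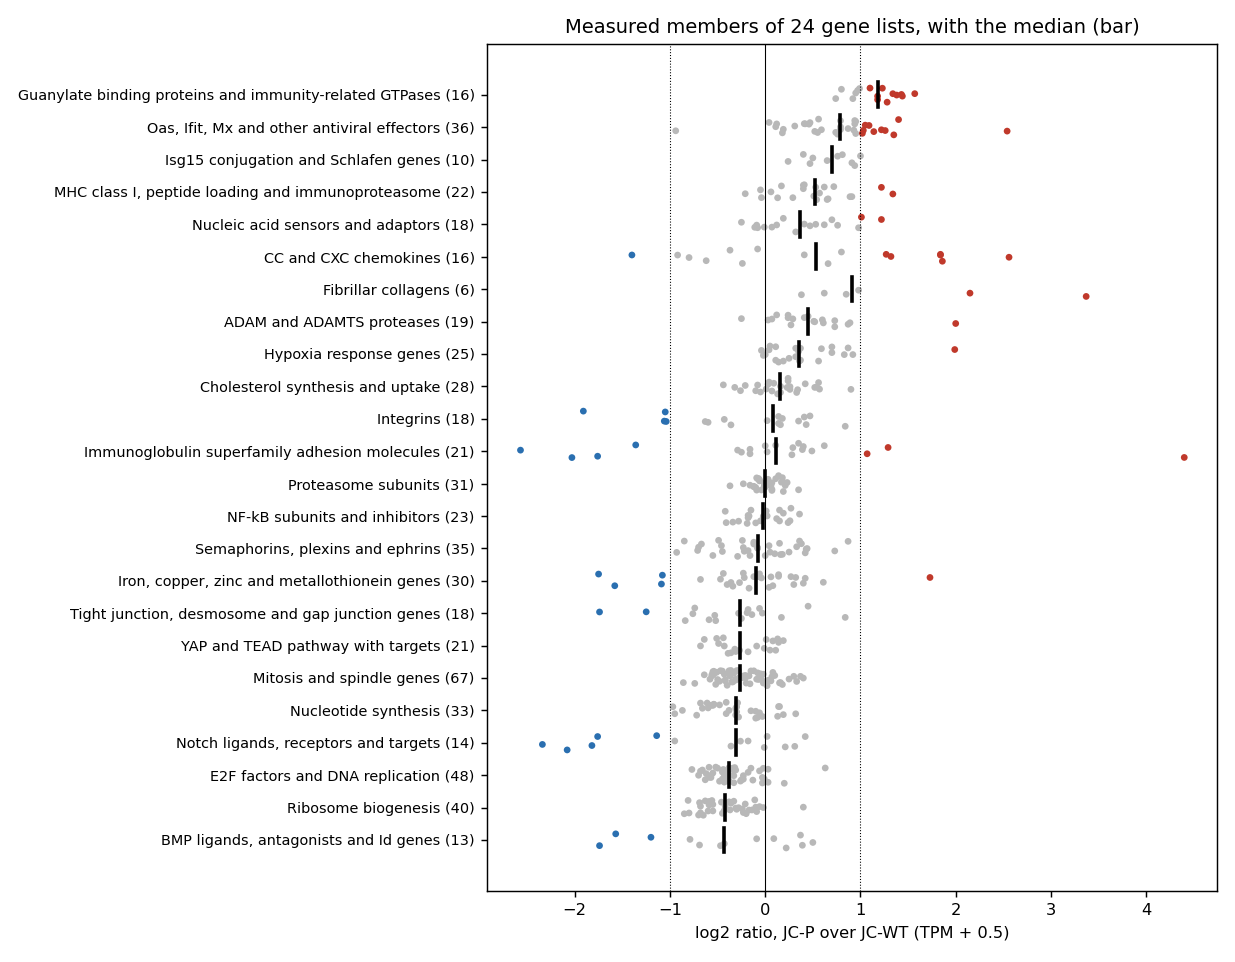
Log2 ratios of JC-P over JC-WT for the measured members of 24 gene lists, with the number measured in brackets, the median as a black bar, members at least 2-fold higher in red and lower in blue, and dotted lines at 2-fold. The lists shown were picked after the values were seen; the GTPases are all to the right of 0, ribosome biogenesis lies to the left except for 1 gene, and the proteasome is centred on 0.

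The Notch pathway was the signalling list with the largest share of lower members. Notch receptors are cut when a neighbouring cell presents a Delta or Jagged ligand, and the freed domain joins RBPJ to switch on repressors of the Hes and Hey families. Of 14 measured members none was at least 2-fold higher and 5 were lower, against 2.33% of all measured features, and the median was -0.31. Most of the lower members had low levels. Among the 9 genes averaging 10 TPM or more, 1 was at least 2-fold lower and the median was -0.01, and with no filter on the mean it was -0.18. Dll4 stood at 13.8 TPM (JC-WT), 2.33 TPM (JC-P) and 0.23 TPM (JC-M3), with a log2 ratio of -2.34 (-3.00 to -2.16). Jag1 was at 8.15, 2.06 and 4.40 TPM (-1.76, -2.37 to -1.61) and Dll1 at 29.5, 13.2 and 6.56 TPM (-1.14, -1.35 to -0.98). Both tumour-derived populations lay below JC-WT for each of the 3 ligands, and JC-M3 was the lowest for Dll4 and Dll1. The target Hes1 was at 10.52, 2.61 and 4.29 TPM (-1.82, -2.60 to -1.45) and Hey1 at 5.54, 0.93 and 1.12 TPM (-2.08, -3.34 to -1.86), both also low in JC-M3. The receptors did not follow, with Notch1 at 62.2, 62.9 and 26.7 TPM (0.02, -0.04 to 0.07) and Notch2 at 61.3, 75.9 and 102 TPM (0.31, 0.25 to 0.37), nor did the DNA-binding partner Rbpj at 29.9, 40.3 and 30.8 TPM (0.42, 0.35 to 0.51). Dll4 and Jag1 both lie on chromosome 2, from 119325784 to 119335962 and from 137081456 to 137116644, with Hes1 on chromosome 16 and Hey1 on chromosome 3, in GRCm38.

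Of 13 measured BMP ligands, receptors, antagonists and Id genes 3 were at least 2-fold lower (23.1%, against 2.33% of all features) and none higher. Below 0 were 8 and above 0 were 5, with a median of -0.43. The median was -0.25 with a pseudocount of 2, -0.08 with no filter on the mean, and 0 over the 10 genes averaging 10 TPM or more, of which 1 was lower. Secreted antagonists bind BMP or activin ligands outside the cell and keep them from their receptors. Fst, follistatin, which binds activin and belongs to the list of TGF-beta genes, was at 6.78, 1.16 and 2.13 TPM (-2.13, -3.12 to -2.01), and Bmper at 10.7, 4.38 and 6.36 TPM (-1.20, -1.59 to -0.99). Grem1, gremlin, the most abundant of these 3, stood at 219, 73.5 and 113 TPM (-1.57, -1.65 to -1.50), and JC-M3 lay between the others. Among Id genes, targets of BMP receptors that restrain differentiation factors, Id4 was at 14.3, 3.95 and 0.49 TPM (-1.74, -2.20 to -1.53) and Id1 at 191, 111 and 43.6 TPM (-0.79, -0.92 to -0.66). The receptor Bmpr2 was at 12.9, 16.8 and 19.4 TPM (0.37, 0.28 to 0.49). Smad7, the inhibitory Smad, was at 21.8, 12.7 and 24.2 TPM (-0.76, -0.98 to -0.59), and Gdf15, a stress-induced relative of the family, at 0.70, 2.63 and 2.12 TPM on 7 and 32 reads.

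Most other signalling lists had few or no members at 2-fold. Of 25 Wnt genes none reached 2-fold, with Fzd1, a receptor, the lowest at 26.2, 13.4 and 17.7 TPM (-0.94, -1.16 to -0.78), and of 9 hedgehog genes none did, with the co-receptor Cdon the highest at 35.3, 68.2 and 37.2 TPM (0.94, 0.86 to 1.04). None of 35 semaphorins, plexins and ephrins, 24 genes of the PDGF, VEGF and TAM axes or 23 genes of ERK feedback reached 2-fold. In the insulin and IGF axis 2 of 11 measured genes were at least 2-fold lower (18.2%, against 2.33% of all features) and none higher. The median of this axis was -0.23. Irs1 was at 11.3, 4.29 and 5.60 TPM (-1.30, -1.62 to -1.18), Irs2 at 12.8, 7.63 and 7.95 TPM (-0.71, -0.96 to -0.53) and Insr at 6.47, 11.1 and 7.36 TPM (0.74, 0.62 to 0.94). Stc2, a secreted glycoprotein that restrains release of IGF, was at 46, 17 and 11.2 TPM (-1.41, -1.58 to -1.30). The growth factor Fgf1 was at 0.61, 2.31 and 2.59 TPM (1.34, 1.17 to 2.74) with its receptor Fgfr1 at 283, 236 and 166 TPM (-0.26, -0.30 to -0.23), and the ErbB ligand Ereg was at 83.6, 44.4 and 116 TPM (-0.91, -1.02 to -0.81) with Egfr at 2.58, 4.26 and 8.03 TPM (0.63, 0.44 to 1.01). All 21 listed genes of the YAP and TEAD pathway lay within 2-fold, with 14 below 0 and a median of -0.27. Their counting intervals lay below 0 for 12 and above 0 for 3. Ccn1, a target of the same pathway outside this list, was lower at 208.5, 89.4 and 542.8 TPM (-1.22, -1.32 to -1.12).

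**Figure D4:**
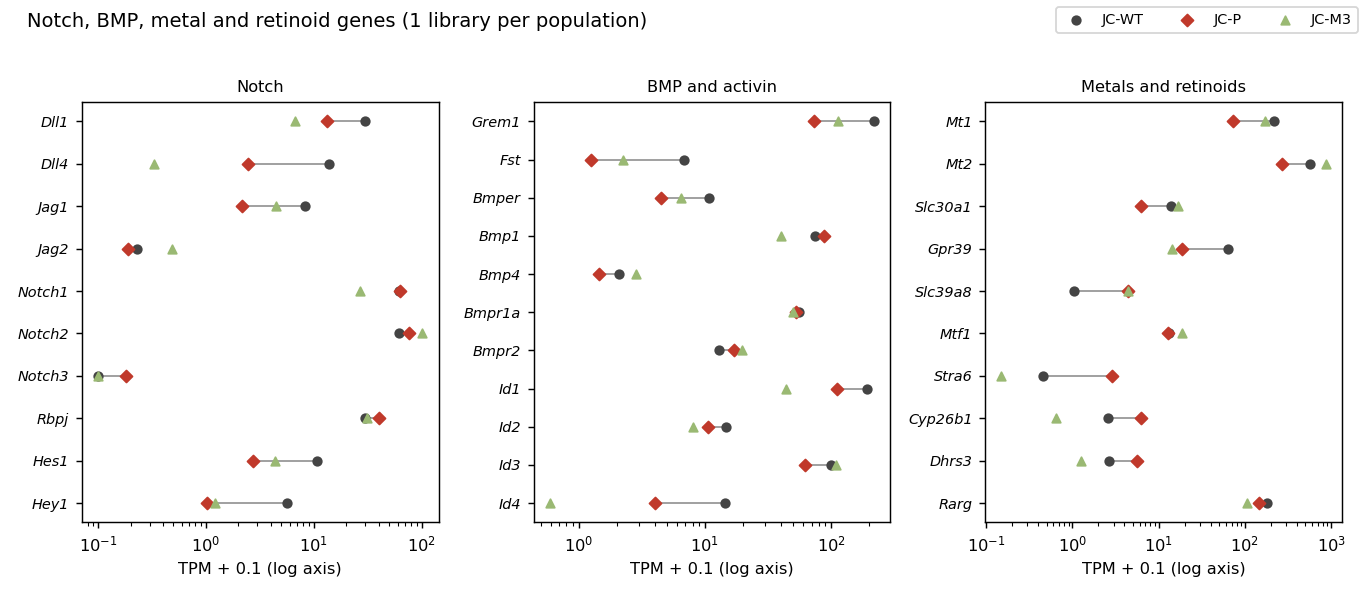
TPM + 0.1 on a log axis for Notch, BMP and activin, and metal and retinoid genes in JC-WT (circle), JC-P (diamond) and JC-M3 (triangle), 1 library each, with a line from JC-WT to JC-P. The genes shown were picked after their values were seen; Notch ligands and targets lie to the left in JC-P while the receptors Notch1 and Notch2 do not, and Stra6 lies to the right.

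Of 30 measured metal-handling genes 4 were at least 2-fold lower (13.3%, against 2.33% of all features) and 1 higher (3.33%, against 4.76%), and the median was -0.09. The members at 2-fold all have to do with zinc. Metallothioneins bind zinc and copper, and with the exporter Slc30a1 they are switched on by the zinc-sensing factor Mtf1. Mt1 stood at 215 TPM (JC-WT), 71.7 TPM (JC-P) and 169.5 TPM (JC-M3), with a log2 ratio of -1.58 (-1.73 to -1.45), and Mt2 at 573, 270.2 and 867 TPM (-1.08, -1.19 to -0.97). Of the exon length of Mt2, 73.5% overlaps another annotated gene, so its level is less certain. Slc30a1 was at 13.8, 6.18 and 16.7 TPM (-1.09, -1.40 to -0.91), and Mtf1 itself was level at 13.1, 12.6 and 18.6 TPM. In all 3 of these target genes JC-P was the lowest and JC-M3 was closer to or above JC-WT. The importer Slc39a8 was higher at 0.95, 4.31 and 4.32 TPM (1.73, 1.69 to 2.71), and Gpr39, a zinc-sensing receptor, lower at 63.8, 18.6 and 14 TPM (-1.75, -1.96 to -1.61), with 39.9% of its exon length overlapping another gene.

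Genes that handle retinoids, the vitamin A derivatives that act through nuclear receptors, included single members with high ratios at low levels. In the list of aldehyde, alcohol and retinoid dehydrogenases and cytochromes P450, 30 genes were measured, with a median of -0.08. None of them was at least 2-fold higher and 2 were lower (6.67%, against 2.33% of all features). The highest ratio of that list was 0.99, and Stra6 and Cyp26b1, given next, do not belong to it. Stra6, the membrane receptor for retinol carrier protein, was at 0.35, 2.74 and 0.05 TPM (1.93, 2.06 to 4.01), with a level above 1 TPM in JC-P alone. Cyp26b1, which degrades retinoic acid, was at 2.47, 6.20 and 0.54 TPM (1.17, 0.93 to 1.73), and Dhrs3, which returns retinal to retinol, at 2.55, 5.56 and 1.15 TPM (0.99, 0.59 to 1.69). For Stra6, Cyp26b1 and Dhrs3 the level of JC-M3 was below JC-WT. The receptor Rarg was at 182, 144 and 106 TPM (-0.34, -0.40 to -0.27). Cyp1a1, the cytochrome P450 induced through the aryl hydrocarbon receptor, was lower at 5.08, 0.82 and 0.63 TPM (-2.08, -3.54 to -1.82), and Vdr, the vitamin D receptor, at 212, 127 and 77.6 TPM (-0.73, -0.79 to -0.68).

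Redox and transport genes contributed single members. Txnip, which inhibits thioredoxin and glucose uptake, was at 7.46, 18.9 and 28.2 TPM (1.29, 1.05 to 1.64), and Gsta4, a glutathione transferase for lipid aldehydes, at 243, 525 and 50.7 TPM (1.11, 1.03 to 1.20), with JC-M3 far below both. Prxl2a, a peroxiredoxin-like protein, was at 104, 16.3 and 6.82 TPM (-2.63, -2.85 to -2.50), and Sod3, the extracellular superoxide dismutase, at 444, 225 and 329 TPM (-0.98, -1.03 to -0.93). The largest ratio among solute carriers was that of the organic anion transporter Slco4a1, at 99.9, 20.2 and 19.2 TPM (-2.28, -2.43 to -2.18). Amino acid transporters were evenly split, with 12 of 24 above 0 and a median of 0.02. Of them 2 were at least 2-fold higher (8.33%, against 4.76% of all features). Among these was Slc7a7, a transporter of cationic amino acids, at 1.12, 3.53 and 2.51 TPM (1.31, 0.93 to 2.44). Slc16a10, an aromatic amino acid transporter counted with other solute carriers, was at 4, 11.2 and 10.4 TPM (1.38, 1.23 to 1.75). The potassium channel gene Kcnh2 was at 26.6, 63.8 and 16 TPM (1.25, 1.14 to 1.39). The nuclear long noncoding RNAs Malat1 and Neat1, neighbours on chromosome 19, were both higher, at 348, 758 and 820.2 TPM (1.12, 1.09 to 1.15) and 19.1, 41.6 and 24.9 TPM (1.10, 1.05 to 1.19), with JC-M3 high for Malat1 and near JC-WT for Neat1. Among bone matrix genes, Phex, an endopeptidase of mineralizing cells, was at 12.6, 27.9 and 8.43 TPM (1.12, 0.99 to 1.32), and Mgp, the inhibitor of calcification, at 10.52, 2.05 and 2.46 TPM (-2.11, -3.24 to -1.56).

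The machinery of growth showed small differences shared by most members of several lists, with no member at 2-fold. Ribosome biogenesis factors cut and modify ribosomal RNA in the nucleolus, and 39 of 40 had ratios below 0, with a median of -0.42 against 0.01 for all measured features. Their counting intervals lay below 0 for 35 of 38 genes with an interval, against 28.3% of all features. Bop1, a processing factor, was at 286, 164 and 294 TPM (-0.80, -0.87 to -0.74), and Rrp12 at 41.3, 22.7 and 37.2 TPM (-0.85, -1.01 to -0.72). For both, JC-M3 lay near JC-WT. The summed level of the list was 5183, 3955 and 5481 TPM. Nucleotide synthesis genes were below 0 in 28 of 33 cases with a median of -0.31. Cad, which starts pyrimidine synthesis, was at 79.1, 40.7 and 85.4 TPM (-0.95, -1.04 to -0.88), and Dctd, which makes the precursor of thymidylate, at 47.3, 23.9 and 35.8 TPM (-0.97, -1.15 to -0.83). Genes of E2F factors and DNA replication were below 0 in 44 of 48 cases with a median of -0.38. The origin licensing factor Cdc6 was at 35.7, 20.8 and 33.8 TPM (-0.77, -0.92 to -0.64) and the helicase subunit Mcm3 at 216, 132 and 219 TPM (-0.70, -0.77 to -0.64), while E2f2 was the highest at 13.8, 21.7 and 11.7 TPM (0.63, 0.47 to 0.84). Mitosis genes were below 0 in 53 of 67 cases with a median of -0.27, from -0.86 for the activator Mybl2 to 0.40 for the cohesion protector Sgo2a. The element core TTTGAA, found in promoters of late cell cycle genes, occurred on either strand in 39 of 59 mitosis genes with a window (66.1%), against 14.5% of measured genes. That share describes the list whatever its ratios. Of all features with a window, the core occurred in 15.3% of those at least 2-fold lower and 16.7% of those higher. Translation factors were below 0 in 30 of 39 cases (median -0.19). Of 54 DNA repair genes none reached 2-fold (median -0.09), and 31 proteasome subunits had a median of 0.

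Stress lists differed in direction. Hypoxia response genes were above 0 in 22 of 25 cases with a median of 0.35, and their counting intervals lay above 0 for 18 and below 0 for none. Car9, a carbonic anhydrase at the cell surface, stood at 37, 68.1 and 19.99 TPM (0.87, 0.72 to 1.04), with JC-M3 below JC-WT. Glycolysis genes, many of which respond to hypoxia too, had a median of -0.02, with Aldoc, an aldolase, at 2.63, 7.23 and 5.81 TPM (1.31, 0.98 to 1.97) and Slc2a1, the glucose transporter, at 199, 152 and 142 TPM (-0.38, -0.45 to -0.32). Genes of the unfolded protein response were above 0 in 22 of 30 cases with a median of 0.15. Creb3l1, a membrane-bound transcription factor of secretory cells, was at 20.8, 43.4 and 26 TPM (1.05, 0.87 to 1.26), and Hsp90b1, the chaperone of the endoplasmic reticulum, at 794, 1343 and 1335 TPM (0.76, 0.73 to 0.78), whereas the cytosolic chaperone Hsph1 was at 338, 195 and 265 TPM (-0.79, -0.83 to -0.75). Heat shock proteins and chaperones were below 0 in 19 of 33 cases with a median of -0.03, and their intervals lay below 0 for 15 and above 0 for 10. Genes of the integrated stress response and serine synthesis were below 0 in 16 of 28 cases with a median of -0.10. Of the 28, 2 were at least 2-fold lower (7.14%, against 2.33% of all features) and 1 higher (3.57%, against 4.76%). Their intervals lay below 0 for 15 and above 0 for 8. The lower ones were Stc2, given above, and the lipoprotein receptor Vldlr at 7.53, 3.26 and 4.66 TPM (-1.09, -1.45 to -0.96). Cholesterol synthesis and uptake genes were above 0 in 21 of 28 cases with a median of 0.16. Of 34 p53 targets only Plk2, a polo-like kinase, reached 2-fold, at 40.4, 14.5 and 41.5 TPM (-1.44, -1.64 to -1.31), with JC-M3 level with JC-WT, and none of 32 apoptosis regulators did.

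Several genes with large ratios and a mean of 10 TPM or more were not in the gene lists behind the families above, though some have related roles. Higher in JC-P were Rgcc, a cell cycle and complement response gene, at 2.44, 17.2 and 12.5 TPM (2.60, 1.96 to 3.82), Shfl, an inhibitor of viral ribosomal frameshifting, at 2.02, 9.84 and 18.6 TPM (2.04, 1.78 to 2.83), and Lefty1, a secreted antagonist of Nodal, at 27.7, 79.2 and 45.1 TPM (1.5, 1.32 to 1.72). Lower were Dapk1, a death-associated kinase, at 64, 23.2 and 21.9 TPM (-1.44, -1.55 to -1.37), Nppb, the natriuretic peptide precursor, at 56.3, 16.9 and 47.8 TPM (-1.70, -2.10 to -1.37), and Havcr2, a checkpoint receptor, at 29.7, 12 and 1.93 TPM (-1.27, -1.55 to -1.07). Dapk1 was low in both tumour-derived populations, Nppb in JC-P alone, and Havcr2 was lowest in JC-M3.

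Ratios also differed slightly by chromosome. Over protein-coding genes the median was 0.24 for 356 genes of chromosome X and 0.19 for 556 genes of chromosome 10, and at the other end -0.14 for 473 genes of chromosome 15 and -0.10 for 629 genes of chromosome 8. On chromosome X 14 genes were at least 2-fold higher (3.93%) and 2 lower (0.562%), on chromosome 15 6 (1.27%) and 7 (1.48%). Over all protein-coding genes these shares were 2.42% and 1.22%. The share of higher genes was close to that of X on chromosome 18, with 3.7%. The 13 genes of the mitochondrial genome had a median of 0.36. With chromosome medians subtracted, the list medians were -0.43 for ribosome biogenesis, 0.37 for hypoxia genes and -0.22 for mitosis genes, close to the values above.

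**Figure D5:**
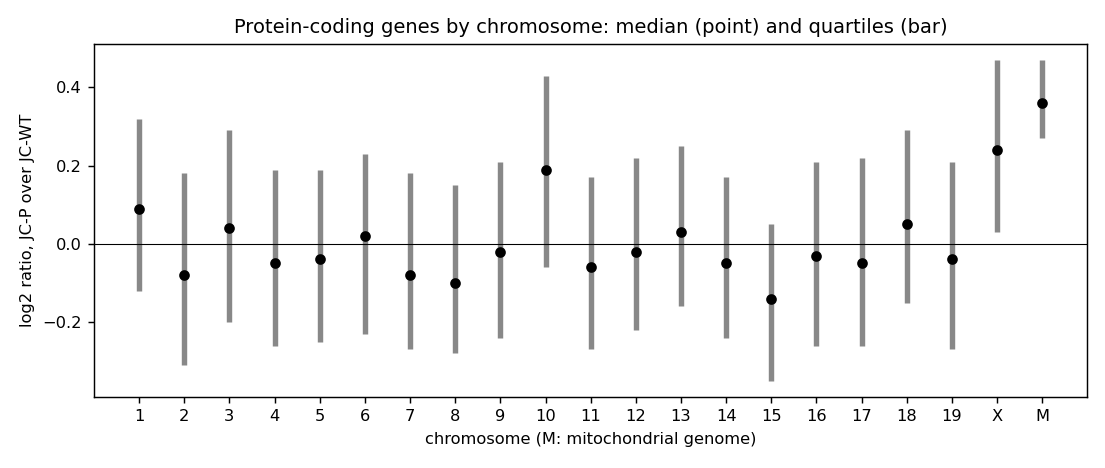
Median (point) and quartiles (bar) of the log2 ratio of JC-P over JC-WT for measured protein-coding genes, by chromosome; M is the mitochondrial genome with 13 genes. Medians of the nuclear chromosomes run from -0.14 for chromosome 15 to 0.24 for chromosome X.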

How the data were processed

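Polyadenylated RNA of the 3 populations was sequenced as 1 library each. The authors deposited TPM values per gene, per the file headers. Versions in the submitters' processing notes are 2.7.9a for STAR and 0.11.9 for FastQC, featureCounts is listed without one, and the builds are given as mm10 and GRCm38. The release of the annotation and the use of strand in counting remain not given in the sources used here, so overlapping genes on either strand cannot be told apart with certainty. TPM times the exon length in GENCODE M21 came in whole multiples of a fixed step. Whole reads, to a tolerance of 0.01 reads, resulted for 98.4% of expressed genes (JC-WT), 98.5% (JC-P) and 98.5% (JC-M3). Exact conditional (Clopper-Pearson) 95% intervals and a floor of 3 reads came from these reads. PCR duplicates are not independent molecules, so both cover counting error only, and genes without recovered reads have no interval.

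Features averaging 1 TPM or more over all libraries were compared by the log2 ratio of TPM + 0.5 and counted at 2-fold. The members and the 105 gene lists were chosen with earlier results of these data known, and the Ifi200 list was added after its values were seen. Named genes were the 2 highest and 2 lowest of each list, list members at 2-fold, the 40 highest and 40 lowest that averaged 10 TPM or more and had no predicted or clone name, receptor and ligand partners, and markers. Other genes named in the text were chosen after their values were seen. They are Bop1, Car9, Cx3cl1, Id1, Ifih1, Irf9, Irs2, Mmp14, Mtf1, Rarg, Slc2a1, Sod3, Tap1 and Timp3. Promoters were matched by symbol, which held for 9405 of 14520 measured symbols. Alternatives were other pseudocounts, filters, scalings and thresholds. The scripts were tested on simulated data. A few items are not reported here. Analyses ran in Python 3.11.15 (numpy 2.4.6, matplotlib 3.10.9, pandas 2.3.3, scipy 1.17.1).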

Additional observations from a re-analysis of the deposited data

How the results depend on the processing

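The numbers of features at least 2-fold higher (692) and lower (339) depended on the settings. They were 361 and 173 with pseudocount 2, 1288 and 647 with no filter on the mean, 156 and 63 for features averaging 10 TPM or more, 1737 and 1003 at a 1.5-fold threshold, and 181 and 82 at 4-fold. Where the counting interval also had to leave out no change, they were 418 and 187. With protein-coding genes only they were 276 and 139, and with features under 300 bases left out the lower features numbered 225. The last 2 settings were chosen after seeing the data. Pseudocount 0.1, centring, trimmed-mean scaling and leaving out mitochondrial transcripts kept both counts within 1.5 times, and the scaling factor of 0.009 (log2) moved few ratios. Of 184 named genes recomputed, 48 lay below 2-fold with pseudocount 2 and 1 with trimmed-mean scaling, and none reversed. None of 22 list medians of at least 0.3 in size reversed under the settings run on lists. The medians of the Notch and BMP lists came to -0.01 and 0 over genes averaging 10 TPM or more. No paired analysis was possible because each group has 1 library. With 1 library a side, variation between cultures is unknown, and large ratios of low genes rest on few reads.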
